A study of Ostrinia furnacalis with 9 samples.

Results

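The H3K9me3 peaks of diapause heads were set against those of non-diapause heads of the Asian corn borer, Ostrinia furnacalis, a moth whose larvae can arrest their development. The members are the peaks of the deposited diapause and non-diapause H3K9me3 lists, with the peaks on the single sequence whose name starts with NC_ left out. There were 3504 diapause and 4483 non-diapause peaks, together 7987 of the 29330 peaks in the 6 lists of the series. Each list was then split in 2. A peak that overlapped any peak of the other stage, by 1 bp or more, is called kept, and a peak that overlapped none is called stage-only. Diapause larvae had been held from the start of the fourth instar for at least 30 days at 20 °C and a day of 12 h light to 12 h dark. Non-diapause larvae came from the same stock, which was reared on artificial diet at 27 °C and 65% humidity and a day of 16 h light to 8 h dark, and no other rearing is given for them. If they were kept as the stock was, temperature and day length differed together with the state of the larvae, and these cannot be told apart. No holding time is given for the non-diapause larvae, so larval age may also have differed and cannot be told apart from the state. The 9 samples of the series also cover a pre-diapause stage (20 days under the diapause conditions), H3K27me3 at all 3 stages and 3 inputs, and the inputs were not analysed here. The stock was founded from larvae collected in a corn field, and the number of heads behind a library is not given in the sources used here. A head holds nervous tissue, muscle, fat body, cuticle-forming cells and other cells, so fewer cells carrying the mark and less mark in each cell cannot be told apart. The lists name no genes, so the tissue could not be checked against marker genes.

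H3K9me3, histone H3 trimethylated at lysine 9, is known from constitutive heterochromatin and from silenced repeats and transposons. It is written by methyltransferases of the Su(var)3-9 and SETDB1 families and is bound by heterochromatin protein HP1, which can recruit more of the writing enzyme so that marked domains spread. H3K27me3 is written by Polycomb repressive complex PRC2 and is known for silencing developmental genes. Larval diapause in moths is a hormonal state in which the release of prothoracicotropic hormone and of ecdysteroids is held back.

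Diapause and non-diapause heads shared a core of H3K9me3 peaks, and each list had a large stage-only set. Stage-only peaks made up 42.1% of the diapause list (1474 peaks) and 54.5% of the non-diapause list (2441 peaks). In the H3K27me3 lists, split in the same way, they made up 39.5% at diapause and 38.2% at non-diapause. Kept peaks numbered 2030 at diapause and 2042 at non-diapause, so the lower share of non-diapause peaks kept (45.5%, against 57.9% at diapause) goes with the longer list. Exactly 1 diapause and 1 non-diapause peak met in 1972 pairs. With 1 list for each stage there is no replicate error to set these counts against, and no test between stages was made. Intervals in brackets are exact Clopper-Pearson 95% intervals for shares and order-statistic 95% intervals for medians. They reflect counting error alone, as if neighbouring peaks were independent, and carry nothing of the variation between animals. The lists carry no read totals, so depth is unknown, and a place without a listed peak may still hold the mark below the threshold of the list.

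Few stage-only peaks were near misses. The smallest overlap of a kept pair was 15 bp, and in 2 kept peaks of each list the overlap was under 50 bp. Just outside the rule, the closest stage-only peak lay 8 bp from a peak of the other stage. Only 11 of the 1474 diapause stage-only peaks and 11 of the 2441 non-diapause ones came within 500 bp of a peak of the other stage. The median distance to the nearest peak of the other stage was 29.4 kb for diapause and 36.4 kb for non-diapause stage-only peaks. A further 119 diapause and 285 non-diapause stage-only peaks, which have no such distance, lay on scaffolds without any H3K9me3 peak of the other stage.

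Counted in base pairs, the 2 lists shared 1.22 Mb. This was 52.2% of the 2.33 Mb covered at diapause and 41.7% of the 2.91 Mb covered at non-diapause. Stage-only peaks held 0.823 Mb at diapause and 1.35 Mb at non-diapause. Parts of kept peaks that lay outside the peak of the other stage came to 0.289 Mb at diapause and 0.349 Mb at non-diapause. Most of the base pairs called at a single stage therefore lay in whole stage-only peaks and not at the edges of kept ones.

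Kept peaks were wider than stage-only peaks at both stages. At diapause the median width was 567.5 bp (554–586) in kept and 466 bp (449–488) in stage-only peaks. At non-diapause it was 589.5 bp (568–611) in kept and 437 bp (430–447) in stage-only peaks. Of the diapause peaks of at least 2000 bp, 67 were kept and 5 were stage-only, and of the non-diapause peaks of that width 81 were kept and 12 were stage-only. The share kept went up with each step in width in both lists. Among peaks under 400 bp, 47.6% (44.5–50.7) were kept at diapause and 31.2% (28.8–33.7) at non-diapause, while from 2000 bp upward 93.1% (84.5–97.7) were kept at diapause and 87.1% (78.5–93.2) at non-diapause. Narrow peaks lie close to the shortest width in the lists, 306 bp at diapause and 299 bp at non-diapause, so the lower classes hold many peaks near the smallest width listed.

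**Figure D1:**
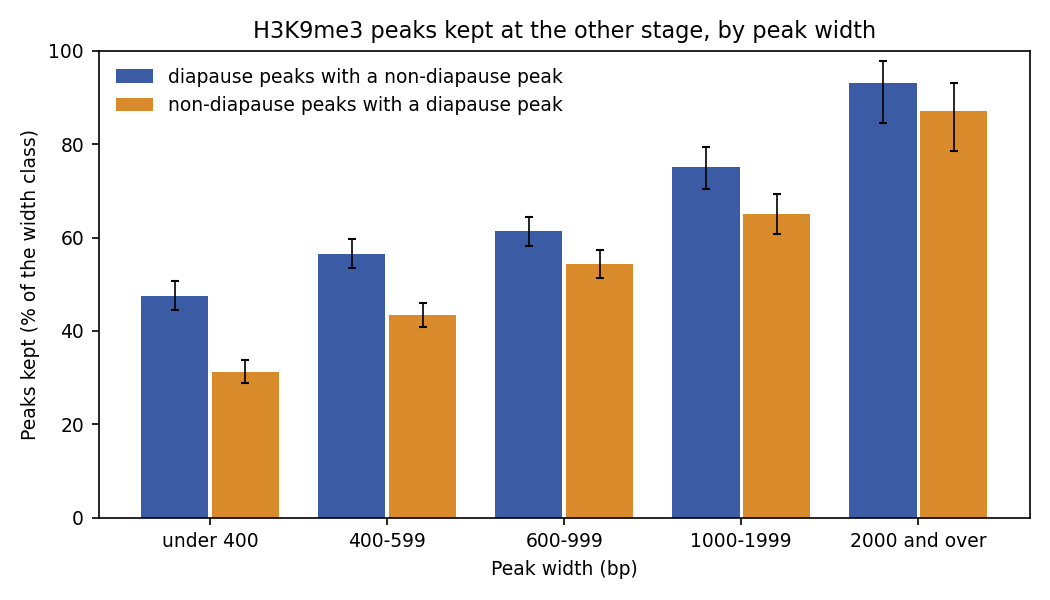
Share of H3K9me3 peaks kept at the other stage (%) in 5 classes of peak width in bp, with diapause peaks in blue and non-diapause peaks in orange. Bars are shares of a class with exact 95% binomial intervals. The share rises with width in both lists, and in every class it is higher for diapause peaks, which are set against the longer non-diapause list.

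The share kept also went up with the strength of the call, while diapause peaks were narrower in the stronger parts of their list. When each list was split into 4 equal parts by the authors' −log10 q, the share kept at diapause was 39.2% (35.9–42.5) in the weakest part and 80.5% (77.7–83.1) in the strongest. At non-diapause it was 33.5% (30.7–36.3) and 61.2% (58.3–64.1). The median width of stage-only diapause peaks was 528 bp in the weakest part and 362 bp in the strongest, and that of kept ones 587 bp and 542 bp. Kept peaks had the larger median width in each of the 4 parts of both lists. In the strongest part the medians were 542 bp for kept and 362 bp for stage-only peaks at diapause, and 730 bp and 461 bp at non-diapause. The authors' fold enrichment is on a scale of its own in each list. In the strongest part of the non-diapause list the median fold was 5.05 for kept and 5.07 for stage-only peaks. In that of the diapause list it was 3.79 for kept and 2.81 for stage-only peaks.

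The non-diapause list had a second group of well-kept peaks at its low end of fold. When the list was split into 10 equal parts by fold, 57.5% (52.7–62.1) of the lowest part, with folds of 1.31 to 2.24, was kept. The third part from the bottom, with folds of 2.64 to 2.89, had 35.3% (30.8–39.9) kept, and the highest part had 61.5% (56.8–66.0). The diapause list showed no such low-fold group, with 46.2% (40.8–51.5) kept in its lowest part, 47.1% (41.8–52.5) in the third and 88.9% (85.1–92.0) in its highest.

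Where a peak was kept, its extent was mostly kept too, with a small shift toward narrower diapause peaks within pairs. Diapause peaks covered 77.7% of the base pairs of the kept non-diapause peaks, and non-diapause peaks covered 80.8% of those of the kept diapause peaks. The median kept diapause peak was covered to 93.9% (93.2–94.8) at non-diapause, and the median kept non-diapause peak to 88.5% (87.6–89.6) at diapause. Less than 50% of the width was covered in 173 of the 2030 kept diapause peaks and in 187 of the 2042 kept non-diapause peaks. Within the 1972 pairs the diapause peak was narrower in 1095, wider in 871 and equal in 6, so that 55.5% (53.3–57.7) were narrower at diapause. The median difference, diapause minus non-diapause, was -20.5 bp (-30 to -11), with medians of 563.5 bp at diapause and 585 bp at non-diapause. Over the whole lists the order was the reverse, with median widths of 522 bp at diapause and 496 bp at non-diapause. The spread within pairs was far larger than the shift of -20.5 bp, with 25% of pairs at -149 bp or below and 25% at 78.2 bp or above.

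Both shrinkage and growth were seen. The diapause peak lay inside the non-diapause peak in 31.7% (29.6–33.8) of pairs, the non-diapause peak lay inside the diapause peak in 20.7% (18.9–22.5), and in the remaining 47.6% (45.4–49.8) each reached past the other on 1 side. The diapause peak had less than 50% of the width of its partner in 130 pairs, and in 110 pairs the partner had less than 50% of the width of the diapause peak. Among the 384 pairs picked for a non-diapause width of at least 1000 bp, 74.7% (70.1–79.0) were narrower at diapause. Among the 319 pairs picked for a diapause width of at least 1000 bp, 33.5% (28.4–39.0) were. The way the pairs are picked tilts both shares, and among the 324 pairs whose mean width over the 2 lists was at least 1000 bp the share narrower at diapause was 55.6%, with an interval whose lower end was at 50%. It was 60% (56.1–63.8) of the 655 pairs with a mean width from 600 to under 1000 bp and 52.6% (49.4–55.7) of the 993 below that. Across pairs the widths at the 2 stages had a Spearman rho of 0.58 (n = 1972 pairs, which share the 2 libraries). The rho was 0.50 for fold and 0.53 for −log10 q.

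**Figure D2:**
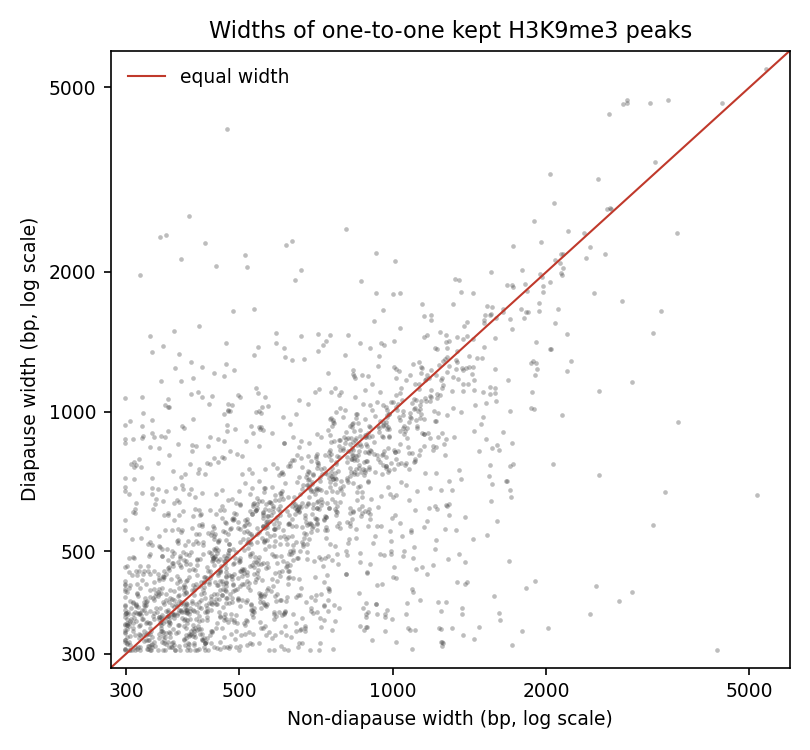
Width of the diapause peak against the width of the non-diapause peak in the 1972 pairs of kept H3K9me3 peaks, both in bp on log axes. Each point is a pair and the red line marks equal width. Points lie on both sides of the line, and a small group sits at diapause widths above 4000 bp with non-diapause widths mostly below them.

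The 5 kept non-diapause peaks of at least 1000 bp with the least coverage at diapause met a diapause peak only over a short piece or at an end. On scaffold NW_021137824.1 the non-diapause peak at 251465–256642 was 5178 bp wide, with a fold of 3.06, and the diapause peak in it, at 251794–252452, was 659 bp wide, with a fold of 1.50 in its own list. On NW_021136438.1 the diapause peak had 306 bp, at 27359–27664, inside a non-diapause peak of 4328 bp at 23964–28291. On NW_021134379.1 the diapause peak at 183447–184175 overlapped only the right end of a non-diapause peak of 2538 bp at 181030–183567. The peaks on NW_021131635.1 at 226034–227123 and on NW_021135904.1 at 4496–5621 had 1024 and 1021 bp outside the diapause peak. Their diapause peaks lay at 225686–226099 and 5517–6323. On these scaffolds and on NW_021134379.1 most of the diapause peak lay outside the non-diapause peak, so the 2 met only at an edge. All 5 overlapped H3K27me3 peaks of the non-diapause and pre-diapause lists, and 4 overlapped one of the diapause list. Among all kept non-diapause peaks these shares were already high, at 72.0% for non-diapause, 87.4% for pre-diapause and 73.1% for diapause H3K27me3.

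The 5 kept diapause peaks with most base pairs outside the non-diapause peak met only a short non-diapause peak. On NW_021131070.1 the diapause peak at 42237–46306 was 4070 bp wide, against 473 bp at non-diapause. The other 4, on NW_021132152.1, NW_021134392.1, NW_021133445.1 and NW_021133004.1, were 2310 to 2644 bp wide at diapause, against 350 to 428 bp at non-diapause. The 5 diapause folds lay between 1.73 and 2.29, against a median of 1.75 in all diapause peaks of at least 2000 bp and of 2.57 in the list. Non-diapause H3K27me3 was called at none of the 5 and diapause H3K27me3 at 2, while all 5 had an H3K9me3 peak at pre-diapause. Among all kept diapause peaks the share was 72.3% for H3K27me3 of either stage and 92.7% for pre-diapause H3K9me3.

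A set of kept peaks stood out by near-equal widths. Of the 28 diapause peaks of at least 3000 bp, 23 were 4070 to 4733 bp wide, with a median of 4611 bp. They lay on 22 scaffolds, and their folds ran only from 1.61 to 2.05. This set, all diapause peaks from 4000 bp to under 5000 bp, was chosen after the widths were seen. The non-diapause list had just 2 peaks of those widths. At the 23 places it held 1 peak in 8 cases and 2 peaks in 15, its widest peak had a median of 2809 bp, and it covered a median of 69.1% of the diapause peak. Of the 28 diapause peaks that each met 2 non-diapause peaks, 15 were thus in this set. The pre-diapause list had 1 peak of 4217 to 4935 bp at each of the 23. An H3K27me3 peak was present at 22 of the 23 at diapause and at the same 22 at non-diapause, against 72.3% of all kept diapause peaks at each of these stages. Over these 22 it covered a median of 63.4% of the diapause H3K9me3 peak at diapause and 26.5% of it at non-diapause. The exception is the peak on NW_021131070.1 described above. Whether these places share sequence was not analysed here.

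The widest peak kept whole lay on NW_021134071.1, at 255325–260809 at diapause and 255381–260776 at non-diapause. Its width was 5485 bp at diapause and 5396 bp at non-diapause. It had the highest −log10 q of the diapause H3K9me3 list, 193, against 79.3 at non-diapause, and folds of 14.1 at diapause and 5.13 at non-diapause in their own lists. It was also the only diapause peak of 5000 bp or more. Its H3K27me3 folds, each in its own list, were 3.21 for the non-diapause, 4.90 for the pre-diapause and 11.8 for the diapause library. The next in width, on NW_021133072.1, NW_021133398.1 and NW_021135547.1, belong to the set of 23, and the last, on NW_021132401.1 at 334357–337618, had 3262 bp, all of it covered by a diapause peak of 3455 bp.

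Stage-only and kept peaks were mixed over the same scaffolds. Diapause peaks lay on 1016 scaffolds and non-diapause peaks on 1108, and 913 scaffolds had both. Of the scaffolds with diapause peaks 529 carried kept and stage-only peaks together, and of those with non-diapause peaks 606 did. On 193 scaffolds every diapause peak was stage-only, and on 285 scaffolds, or 25.7% (23.2–28.4), every non-diapause peak was. Most of these held a single peak, 149 of the 193 and 185 of the 285. The share kept did not follow the number of peaks on a scaffold. It was 57.9% (52.6–63.1) at diapause and 47.0% (41.7–52.4) at non-diapause on scaffolds with 1 peak of the list, and 61.7% (58.1–65.2) and 47.8% (45.1–50.4) on scaffolds with 10 or more. Peaks that began in the first 1000 bp of a scaffold, 95 at diapause and 104 at non-diapause, were kept in 50.5% (40.1–60.9) and 48.1% (38.2–58.1).

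No scaffold rich in peaks stood apart by a low share kept. The 103 scaffolds with at least 10 non-diapause peaks kept between 18.2 and 80.0% of them, with a median of 47.1%, against 45.5% in the whole list. The interval of a single scaffold, wide at these counts, lay above the value of the whole list in 1 of the 103 and below it in 0. NW_021131371.1 had the most, with 29 diapause and 34 non-diapause peaks, of which 20 diapause and 21 non-diapause peaks were kept. NW_021135154.1 had 15 diapause and 24 non-diapause peaks, with 12 kept in each list, and NW_021136930.1 had 13 and 24, with 10 kept in each. NW_021137252.1 had 15 and 23, with 11 kept in each, and NW_021137587.1 had 15 and 23, with 9 diapause and 10 non-diapause peaks kept. Among the 103, the lowest shares were on NW_021131129.1, with 2 of 11 non-diapause peaks kept, on NW_021130297.1, with 3 of 15, and on NW_021133236.1, with 2 of 10. The highest were on NW_021130446.1 and NW_021133984.1, each with 8 of 10, and on NW_021132730.1, with 9 of 12. NW_021133984.1 had more diapause than non-diapause peaks, 13 against 10.

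Neighbours within 2 kb were more often of the same class than distant ones. Of the diapause peaks 20.7% (19.4–22.1) had another diapause peak within 10 kb, and of the non-diapause peaks 25.3% (24.1–26.6) had another non-diapause peak within 10 kb. Within 10 kb these shares were 20.6% for stage-only and 20.9% for kept peaks at diapause, and 24.6% for stage-only and 26.2% for kept peaks at non-diapause. Within 2 kb they were 7.19% (5.92–8.63) for stage-only and 7.39% (6.29–8.61) for kept peaks at diapause, and 6.88% (5.91–7.96) for stage-only and 9.30% (8.08–10.6) for kept peaks at non-diapause. Where the next peak along the scaffold lay within 2 kb, it was stage-only in 61.5% (47.0–74.7) of cases after a stage-only diapause peak and in 30.5% (20.8–41.6) after a kept one. In the non-diapause list the shares were 61.9% (51.4–71.5) after a stage-only peak and 21.3% (13.4–31.3) after a kept one. Some kept neighbours met the same peak of the other stage. Without these 15 diapause and 28 non-diapause neighbour pairs, left out after the values were seen, the next peak was stage-only after a kept peak in 37.3% (25.8–50) at diapause and in 31.1% (19.9–44.3) at non-diapause. The diapause intervals within 2 kb then overlapped, while the non-diapause ones still stood apart. With more than 100 kb to the next peak, and all pairs in, the shares after a stage-only and after a kept peak were 41.1% (35.7–46.8) and 46.3% (41.4–51.3) at diapause, and 54.7% (49.9–59.4) and 53.6% (48.3–58.8) at non-diapause.

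**Figure D3:**
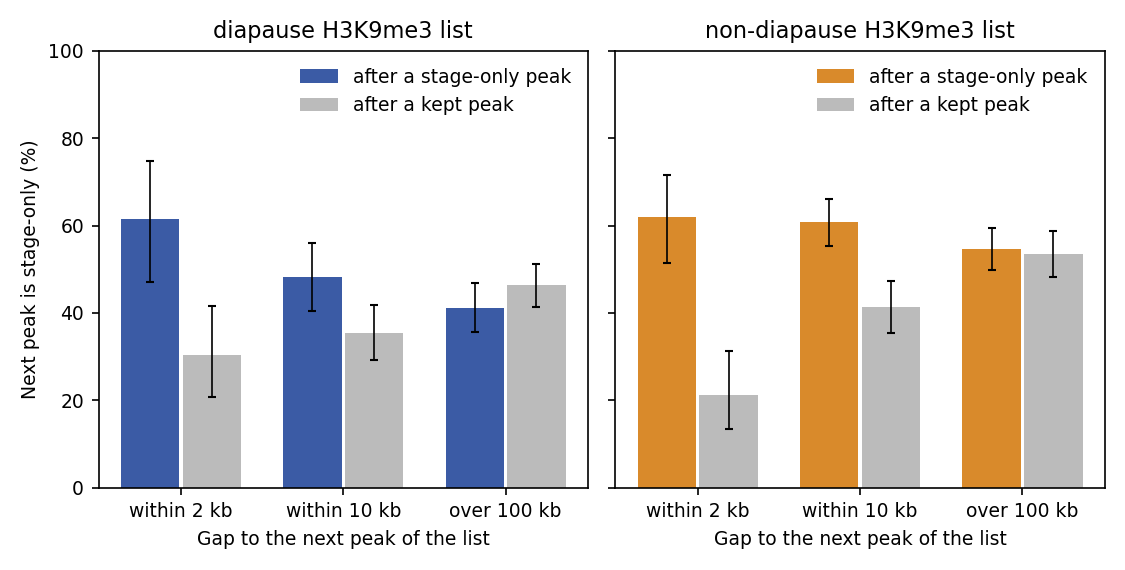
Share of H3K9me3 peaks whose next peak along the scaffold was stage-only (%), by the gap to that next peak, after a stage-only peak (coloured) or a kept peak (grey), with the diapause list on the left and the non-diapause list on the right. Bars are shares with exact 95% binomial intervals. The intervals stand apart within 2 kb and overlap above 100 kb. Without neighbours that met the same peak of the other stage, which are not left out here, the diapause intervals within 2 kb overlap too.

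Long runs of stage-only peaks were few, on scaffolds that mostly hold few peaks. The median scaffold with peaks of the list held 2 at diapause and 3 at non-diapause, which limits the length of a run. The non-diapause list was also longer and had the larger stage-only share, 54.5% against 42.1%. Whether runs were more or less frequent than these shares alone would give was not tested. Runs of 5 or more neighbouring stage-only peaks numbered 9 at diapause, with 49 peaks, and 44 at non-diapause, with 253 peaks or 10.4% of the stage-only set. The longest non-diapause run had 9 peaks over 636 kb of NW_021132293.1, at 752054–1388066, of which 8 had a pre-diapause H3K9me3 peak and 6 a non-diapause H3K27me3 peak. Between its peaks lay 3 diapause H3K9me3 peaks. Runs of 8 followed on NW_021131498.1, at 1234–341391, and on NW_021133236.1, at 20514–465447, each with 0 diapause H3K9me3 peaks inside. NW_021131498.1 had no other non-diapause peak, so that none of its 8 was kept. The longest diapause runs had 6 peaks. Those on NW_021133324.1, at 32061–295223, and on NW_021130297.1, at 134378–405696, were spread over 263 and 271 kb, and the third was compact. Inside the first 2 lay 1 and 4 non-diapause H3K9me3 peaks, and inside the third 0.

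The compact run lay in the 100 kb window with most diapause H3K9me3 peaks, on NW_021133039.1 at 600001–700000. The window held 12 diapause peaks and 1 non-diapause peak. The diapause peaks were 360 to 2322 bp wide, covered 12850 bp and had folds of 1.56 to 2.29. Only the widest of them, at 657410–659731, met the non-diapause peak, at 657831–659782, which was 1952 bp wide with a −log10 q of 12.2. The run of 6 stage-only peaks spanned 35.7 kb, at 660596–696320. The pre-diapause list also had 12 H3K9me3 peaks in the window, and they covered 24550 bp. H3K27me3 was nearly absent from the lists here, with 0 peaks at non-diapause, 1 peak of 380 bp at pre-diapause and 0 at diapause. No 100 kb window held more than 7 non-diapause peaks, and the one with 7, on NW_021130506.1 at 200001–300000, held 3 diapause H3K9me3 peaks and H3K27me3 peaks at all 3 stages. Both windows were picked for their count in 1 list, so that the lower count in the other follows in part from the choice.

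The stage-only classes of the 2 lists differed in the other mark. Diapause stage-only peaks carried same-stage H3K27me3 far less often than their list as a whole, while non-diapause stage-only peaks were nearer to theirs. In the whole lists it was called at 1748 of the 3504 diapause and 2911 of the 4483 non-diapause peaks. A diapause H3K27me3 peak overlapped 19.0% (17.0–21.1) of the diapause stage-only peaks and 72.3% (70.3–74.3) of the kept diapause peaks. A non-diapause H3K27me3 peak overlapped 59.0% (57.1–61.0) of the non-diapause stage-only peaks and 72.0% (70.0–73.9) of the kept non-diapause peaks. In base pairs, H3K27me3 peaks of the same stage covered 14.9% of the diapause stage-only set and 53.9% of the non-diapause stage-only set. Whether the H3K9me3 and H3K27me3 libraries of a stage came from the same chromatin is not given in the sources used here. The series has 1 input for each stage, and whether both marks were called against it is not given either. The 2 marks of a stage may therefore share a background, which was not tested.

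**Figure D4:**
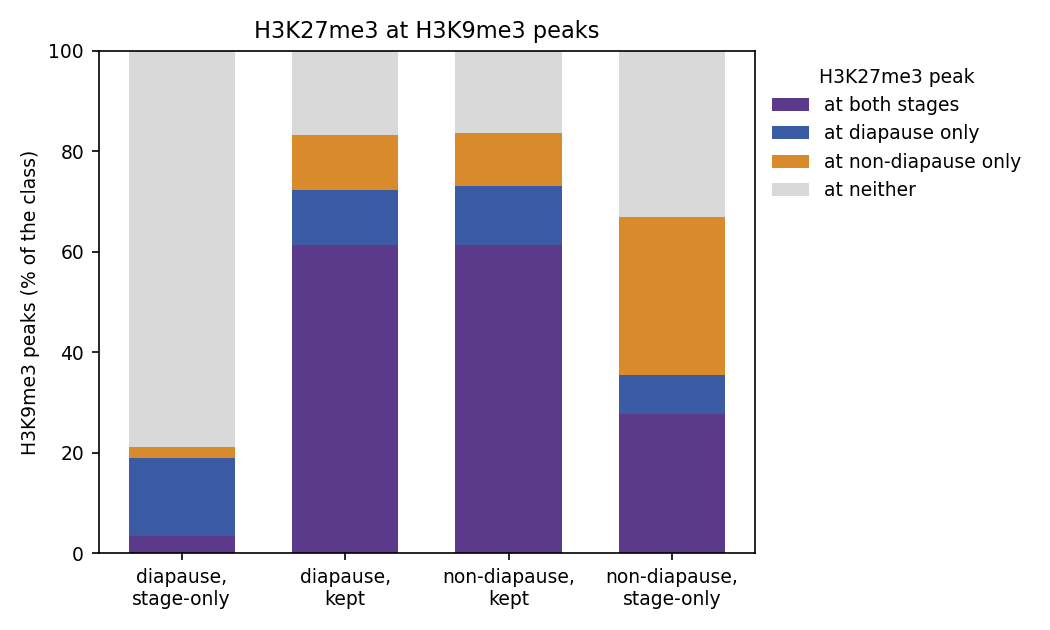
H3K27me3 state of H3K9me3 peaks in the 4 classes, as the share of peaks (%) with an H3K27me3 peak at both stages, at diapause only, at non-diapause only or at neither. Diapause classes are on the left. The diapause stage-only class is mostly without H3K27me3 at either stage (78.9%), against 33.2% in the non-diapause stage-only class.

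Within equal parts of the list by strength, kept and stage-only peaks still differed in H3K27me3 at diapause, while at non-diapause they were close, with overlapping intervals in 3 of the 4 parts. In the strongest diapause part the classes were not of like strength, with median folds of 3.79 for kept and 2.81 for stage-only peaks. From the weakest to the third part these folds were close, at 2.23 and 2.19, 2.44 and 2.45, and 2.78 and 2.72. In the 4 equal parts of the diapause list by −log10 q, from weakest to strongest, 12.8, 22.9, 20.6 and 25.7% of stage-only peaks had H3K27me3 of the same stage, against 51.3, 63.6, 72.4 and 88.1% of kept peaks. In the non-diapause list the shares were 35.3, 54.8, 69.5 and 92.0% of stage-only peaks, against 36.8, 58.9, 78.5 and 94.9% of kept peaks. At diapause the stage-only class stayed low up to its strongest part (19.4–33.0), while at non-diapause both classes went up with strength.

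**Figure D5:**
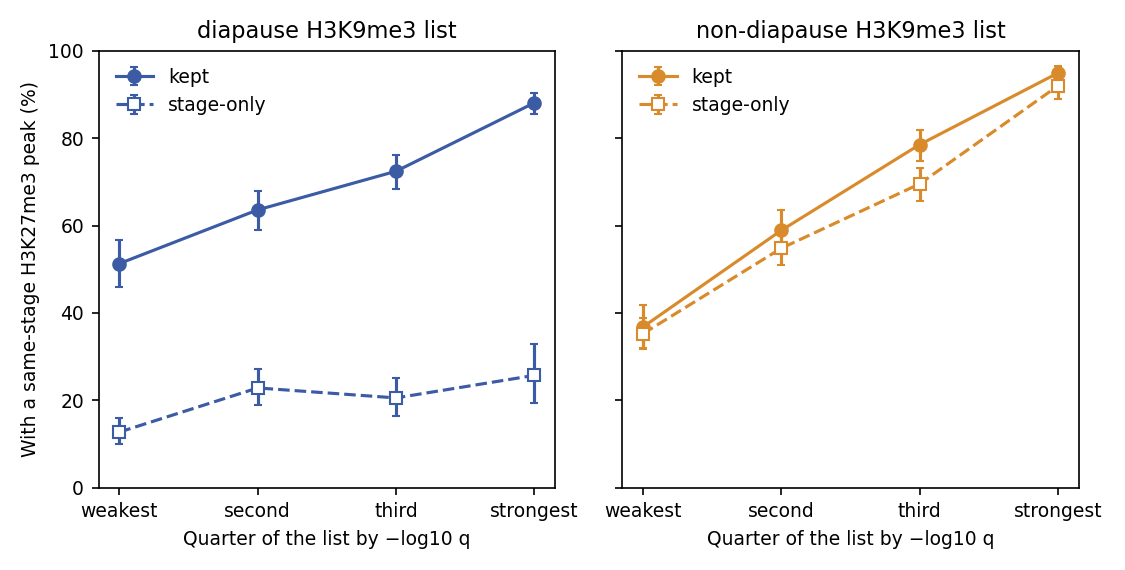
Share of H3K9me3 peaks with an H3K27me3 peak of the same stage (%), in 4 equal parts of the list by −log10 q from weakest to strongest, for kept (filled circles) and stage-only peaks (open squares), with the diapause list on the left and the non-diapause list on the right. Error bars are exact 95% binomial intervals. At diapause the classes are apart in every part, and at non-diapause their intervals overlap in all parts but the third.

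Seen the other way round, a diapause H3K9me3 peak with H3K27me3 was kept far more often than one without. Of the 1748 diapause peaks that overlapped diapause H3K27me3, 84.0% (82.2–85.7) had a non-diapause H3K9me3 peak, and of the 1756 without it 32.0% (29.8–34.2) had one. For non-diapause peaks the shares kept were 50.5% (48.7–52.3) with H3K27me3 and 36.4% (34.0–38.8) without. Peaks with H3K27me3 were wider, with medians of 566.5 against 479 bp at diapause and 565 against 394 bp at non-diapause. They were also stronger, with median −log10 q of 6.73 against 4.35 at diapause and 8.03 against 4.47 at non-diapause. Within equal parts by strength, as given above, kept and stage-only non-diapause peaks were close in H3K27me3. The non-diapause contrast in the share kept is thus not separated from strength, while at diapause the classes differed in every part. The contrast in the share kept was also seen within width classes. Among diapause peaks under 600 bp, 79.6% (76.9–82.1) were kept with H3K27me3 and 29.4% (26.7–32.1) without, and among those of 1000 bp and over 92.7% (89.1–95.3) with and 49.4% (41.2–57.5) without. Among non-diapause peaks under 600 bp the shares were 39.7% (37.2–42.1) with H3K27me3 and 34.0% (31.3–36.7) without. From 600 to under 1000 bp they were 58.6% (55.1–62.0) with and 42.4% (36.6–48.5) without, and from 1000 bp 69.8% (65.7–73.6) with and 57.1% (44.0–69.5) without. The non-diapause gap was thus smallest among the narrow peaks, and the intervals overlapped in the widest class, where 63 peaks lacked H3K27me3.

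Where non-diapause H3K9me3 was not called at diapause, H3K27me3 was at times still called. Of the 2441 non-diapause stage-only peaks 674, or 27.6% (25.8–29.4), had H3K27me3 peaks at both stages and 190, or 7.78% (6.75–8.92), at diapause alone. A further 767, or 31.4% (29.6–33.3), had H3K27me3 at non-diapause alone, so both marks were called there at non-diapause and neither at diapause. The remaining 810, or 33.2% (31.3–35.1), had H3K27me3 at neither. The first group was the widest and strongest, with a median width of 536 bp and a median −log10 q of 7.61, against 382 bp and 4.25 where H3K27me3 was at neither stage. Of the 1474 diapause stage-only peaks 1163, or 78.9% (76.7–81.0), had H3K27me3 at neither stage, 230, or 15.6% (13.8–17.6), at diapause alone, 31 at non-diapause alone and 50 at both. Diapause H3K9me3 without a non-diapause H3K9me3 peak thus lay at a place with non-diapause H3K27me3 in 81 of 1474 cases, or 5.50% (4.39–6.78).

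The extent kept also varied with the other mark, in opposite directions in the 2 lists when both were split by non-diapause H3K27me3. Most kept peaks are the 2 sides of the same 1972 pairs, so these directions are not separate results. Kept diapause peaks at places with non-diapause H3K27me3 were covered at non-diapause to a median of 96.8% (96.1–97.8), and those without it to 83.7% (81.6–85.9). Their median widths were 578.5 and 537.5 bp. Split by diapause H3K27me3 the order was the same, at 95.8% (95.1–96.4) with it and 87.3% (85.0–88.8) without it. Kept non-diapause peaks were covered at diapause to a median of 86.1% (84.5–87.6) with non-diapause H3K27me3 and 94.4% (92.1–96.3) without it, with median widths of 677.5 and 433.5 bp. Split by diapause H3K27me3 instead, they hardly differed, and were covered to 88.7% (87.5–90.0) with diapause H3K27me3 and to 88.2% (86.0–89.6) without it, with median widths of 638 and 510.5 bp. Coverage also fell with width in both lists. In kept peaks under 600 bp its median was 95.6% at diapause and 91.9% at non-diapause. From 1000 bp it was 79.1% and 77.5%. Kept non-diapause peaks with non-diapause H3K27me3 were the wider group. A wider non-diapause peak can cover more of its diapause partner and be covered less itself. Width and the mark are therefore not separated in either list. The split by mark was not repeated within width classes.

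Pre-diapause H3K9me3 was called at most non-diapause stage-only peaks and at little more than 50% of the diapause stage-only peaks. A pre-diapause H3K9me3 peak overlapped 76.5% (74.8–78.2) of the non-diapause stage-only peaks and 52.2% (49.6–54.7) of the diapause stage-only peaks, against 92.7% (91.4–93.8) of the kept diapause and 92.8% (91.6–93.9) of the kept non-diapause peaks. Pre-diapause H3K27me3 was present at 78.5% (76.8–80.1) of the non-diapause stage-only peaks and at 22.0% (19.9–24.2) of the diapause stage-only peaks. The diapause H3K9me3 list alone, of the 6 lists, had a peak at 505 places, or 34.3% (31.8–36.7) of its stage-only set. The non-diapause H3K9me3 list alone had one at 221, or 9.05% (7.94–10.3) of its stage-only set. The pre-diapause lists were the longest of the series, with 7225 H3K9me3 and 6539 H3K27me3 peaks, and a longer list meets more peaks.

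Among the stage-only peaks of highest fold, same-stage H3K27me3 followed the order seen in the strongest parts of their classes. There it was present at 25.7% of diapause and 92.0% of non-diapause stage-only peaks. The 2 sets of 10 also differed in strength, with −log10 q of 11.5 to 17.3 at diapause and 33.8 to 101 at non-diapause. The 10 diapause stage-only peaks of highest fold, 4.74 to 5.46, were all narrow, at 325 to 451 bp, and 1 of them had a diapause H3K27me3 peak, 2 a non-diapause one and 5 a pre-diapause one. Pre-diapause H3K9me3 was called at 6 of them. That of rank 6 lay on NW_021134063.1 at 42156–42539, with a fold of 5.22. NW_021137210.1 476–856 followed with 4.86, NW_021136115.1 308718–309168 with 4.81, NW_021135997.1 318283–318639 with 4.80 and NW_021137919.1 639655–640045 with 4.74. NW_021136115.1 was the place with diapause H3K27me3, at a fold of 3.87, and the peak on NW_021137919.1 was called in no other list. The 10 non-diapause stage-only peaks of highest fold, 8.85 to 13.1, were 485 to 874 bp wide. All 10 had H3K27me3 at non-diapause and pre-diapause and H3K9me3 at pre-diapause, and 6 still had H3K27me3 at diapause. At rank 6 to 10 they lay on NW_021134630.1 at 70425–70922 (fold 9.99), NW_021136930.1 at 1315616–1316140 (9.73), NW_021133186.1 at 65727–66365 (9.68), NW_021130977.1 at 389149–390022 (8.96) and NW_021136315.1 at 85973–86470 (8.85). The first 4 of these had diapause H3K27me3 folds of 3.94, 6.33, 2.68 and 4.95.

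The 5 widest stage-only peaks at diapause, 2184 to 2973 bp, had folds of 1.42 to 2.58 and no H3K27me3 peak at any stage, and 4 had H3K9me3 at pre-diapause. In the whole diapause stage-only class 68.9% had no H3K27me3 peak at any stage and 52.2% had H3K9me3 at pre-diapause. With 5 peaks the widest cannot be set apart from their class. They lay on NW_021131070.1 at 21338–24310, NW_021136861.1 at 43313–45866, NW_021133089.1 at 28741–30988, NW_021132345.1 at 47926–50146 and NW_021134503.1 at 724–2907. The first shares its scaffold with the kept peak that gained most, which lay at 42237–46306. The 5 widest at non-diapause, 2457 to 5357 bp, had folds of 2.49 to 5.20, with H3K27me3 at non-diapause and pre-diapause at all 5 and at diapause at 3. They lay on NW_021137791.1 at 347321–352677, NW_021131650.1 at 312313–315331, NW_021130637.1 at 667230–669876, NW_021137332.1 at 181–2655 and NW_021133510.1 at 175382–177838.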

How the data were processed

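ChIP-seq peak lists of larval heads were used, 1 for each mark and stage, with stage and mark taken from the sample titles. The submitters' processing notes name Bowtie2, Picard, MACS2, ChIPseeker and deepTools without versions. Settings, genome build, the background of the caller and any pooling are not given in the sources used here. Without a header, the 9 columns were read as the MACS2 layout for broad peaks. The deposited fold enrichment (a ratio) and the deposited −log10 p and −log10 q are the authors' values for a peak, and fold and −log10 q served only to describe, rank or split peaks within a list. The deposited score and −log10 p were not used further. Depth is unknown.

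Positions were made 1-based, the peaks on the NC_ sequence (1 in the diapause and 3 in the non-diapause H3K9me3 list) were left out, and overlaps of at least 1 bp were counted. Peaks of a list were compared by width, by the gap to the next peak and by 100 kb windows of peak midpoints. The overlap step was checked on simulated lists. Python 3.11.15, numpy 2.4.6, pandas 2.3.3, scipy 1.17.1 and matplotlib 3.10.9 were used.

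The members, the questions asked and the alternatives were chosen with earlier results of these data known. Named peaks were the 10 of highest fold and 5 widest of each stage-only class, the kept peaks with least and full coverage or most gain, and scaffolds and runs at the extremes. The dense windows, the neighbour pairs left out in 1 comparison and the set of 4 kb peaks were chosen after their values were seen. The gene table holds 17154 genes and places 0 on a scaffold of the lists, so genes near peaks and the planned gene lists were not analysed here. No sequence is printed.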

Additional observations from a re-analysis of the deposited data

How the results depend on the processing

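Of 60 values recomputed under another setting, 35 stayed within the interval of the reported value and 25 moved outside it. For the base-pair coverage of kept non-diapause peaks the interval was only a rough guide, computed as if the share were a share of peaks. None changed which class was higher: kept peaks were wider and more often with H3K27me3 than stage-only peaks at both stages under each setting that recomputed them. Counting peaks within 500 bp as shared, joining peaks less than 1000 bp apart and leaving out scaffold starts moved none. For the H3K27me3 shares each setting was applied in the same way to the H3K27me3 lists and to overlap with them.

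With a minimum −log10 q of 3, 43.7% of non-diapause peaks were kept, 75.0% of kept diapause peaks had H3K27me3, 17.7% of diapause and 23.4% of non-diapause peaks lay within 10 kb of another, and 28.5% of scaffolds kept no non-diapause peak. When overlap had to reach 50% of the peak, 53.0% of diapause and 41.4% of non-diapause peaks were kept. Median widths were then 539 bp for kept and 503 bp for stage-only diapause peaks, and 556 and 452 bp at non-diapause. H3K27me3 shares were 69.8% for kept diapause, 66.7% for kept non-diapause and 56.2% for non-diapause stage-only peaks. Coverage of kept non-diapause peaks was 86.0%, higher by construction, and 28.6% of scaffolds kept none.

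Lists of equal length held the 3504 strongest peaks, down to a −log10 q of 2.05 at diapause and 4.02 at non-diapause for H3K9me3. The H3K27me3 lists were cut to the same length. The shares kept were 49.1% at diapause and 49.2% at non-diapause, nearly equal by construction, since almost all overlaps join 1 peak of each list. Median widths of stage-only peaks were 489 bp at diapause and 424 bp at non-diapause. H3K27me3 shares were 76.6% for kept and 21.8% for stage-only diapause peaks, and 77.6% and 68.0% at non-diapause. Of non-diapause peaks 20.6% lay within 10 kb of another.

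The overlap minimum does not enter distances within a list. No paired analysis was possible because each stage has 1 list for each mark. Depth is unknown, so list lengths do not measure the amount of the mark.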
